A study of Mus musculus with 3 samples.

Results

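The data describe 34 genes of the lysosome in mouse pancreatic islets, out of 31053 genes in the count table. The set was given as a list of names: acid hydrolases, cathepsins, membrane proteins and a few other lysosomal genes, with Glb1 at its centre. All 34 names were found in the table, and the rule that names them uses no measured value. Islets came from male C57Bl6/J mice that were retired breeders, 7 to 8 months old, and their single-cell RNA was captured in droplets with the 10x Genomics assay, which reads the 3′ ends of transcripts. There were 3 libraries, 1 per group. In the S961 group, implanted pumps delivered S961, a peptide that blocks the insulin receptor, at a labelled 20 nM per week for 2 weeks. The recovered group is described in the labels as mice whose pumps had been removed, and the library's title also names S961, but the labels do not say outright that these mice had the same course as the S961 group. The control group carried pumps that held no S961. Islets of all groups were kept in culture overnight and dispersed with TrypLE, an enzyme mix. The number of mice per library and the length of the recovery are not given in the sources used here. Every difference is therefore one between single libraries, with no replicate check, no p-value and no standard error.

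The lysosome is the acidic compartment where cells break down proteins, sugar chains and lipids brought in by endocytosis or autophagy. Its soluble enzymes are made in the endoplasmic reticulum and carried to it by sorting receptors, a proton pump keeps it acidic, and many of its genes are under the transcription factor TFEB. Glb1 encodes the acid beta-galactosidase that removes terminal galactose from gangliosides and keratan sulfate. Its activity, measured at a pH above its optimum, is the senescence-associated beta-galactosidase stain used as a mark of senescent cells, beta cells included. In beta cells, lysosomes also degrade surplus insulin granules.

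Counts are of unique molecular identifiers (UMIs), 1 for each captured RNA molecule. The S961, recovered and control libraries held 47651767, 40102058 and 38265969 UMIs over 5905, 7805 and 10880 barcodes. After filters on genes and mitochondrial UMIs and removal of called doublets, 3417, 3513 and 4258 cells remained. They formed 17 clusters, which were given names ending in "-like" from marker genes. Insulin-rich cells of 4 clusters made the beta-like class, with 1599 S961, 2182 recovered and 2964 control cells. The libraries differed within that class: the median was 13399 UMIs per S961 cell, 10112 per recovered cell and 7472 per control cell, and mitochondrial genes took 4.46%, 7.14% and 6.91% of UMIs. A cluster of low UMI counts held 29.1% of the S961 beta-like cells but 1.88% of the recovered and 1.72% of the control ones. In addition, 51 barcode sequences occurred in 2 libraries, 13 of them among the analysed cells. For each class, UMIs were summed over its cells and set against the class total as CPM, the usual scale that brings every total to the same size. Because the chemistry captures 3′ ends, CPM values are compared between libraries and classes for 1 gene, not between genes.

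Ratios are log2 ratios of CPM, with an exact Clopper-Pearson 95% interval that covers counting error only and not the spread between mice. A gene was counted as measured in a comparison with at least 50 UMIs over both libraries, and as higher or lower if its log2 ratio was past 0.32 in either direction, that is at least 25% higher or 20% lower. In beta-like cells 33 of the 34 genes were measured. The exception was Ctsc, the dipeptidyl peptidase that activates serine proteases of immune cells, with 8 UMIs in S961, 3 in recovered and 2 in control cells.

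In S961 over control beta-like cells, 8 of the 33 measured lysosomal genes (24.2%) were higher past that threshold, as were 14.7% of all 11648 measured genes. Another 4 (12.1%) were lower, as were 12.7% of all measured genes, and 21 were neither. The median of the 33 ratios was −0.01, against −0.02 for all measured genes, with 16 ratios above 0 and 17 below. The genes went in both directions: 7 of 9 sugar-cleaving enzymes and 6 of 8 peptidases were above 0, and all 5 membrane proteins were below 0. Of these 5, Laptm4a (−0.01) was below 0 in 12 of 18 other ways of scaling, filtering or grouping the cells, and the other 4 in all 18. Summed over all 34 genes, the level was 4690 CPM in S961, 5059 in recovered and 5395 in control beta-like cells. Cd63 alone made up 1307, 1457 and 1773 CPM of these sums, so they do not describe the list as a whole. The median level of the 34 genes was 66.1 CPM in S961, 53.9 in recovered and 56.7 in control. When the CPM of each cell was averaged instead, which moved the median of all genes to −0.14, 6 lysosomal genes were higher and 5 lower.

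**Figure D1:**
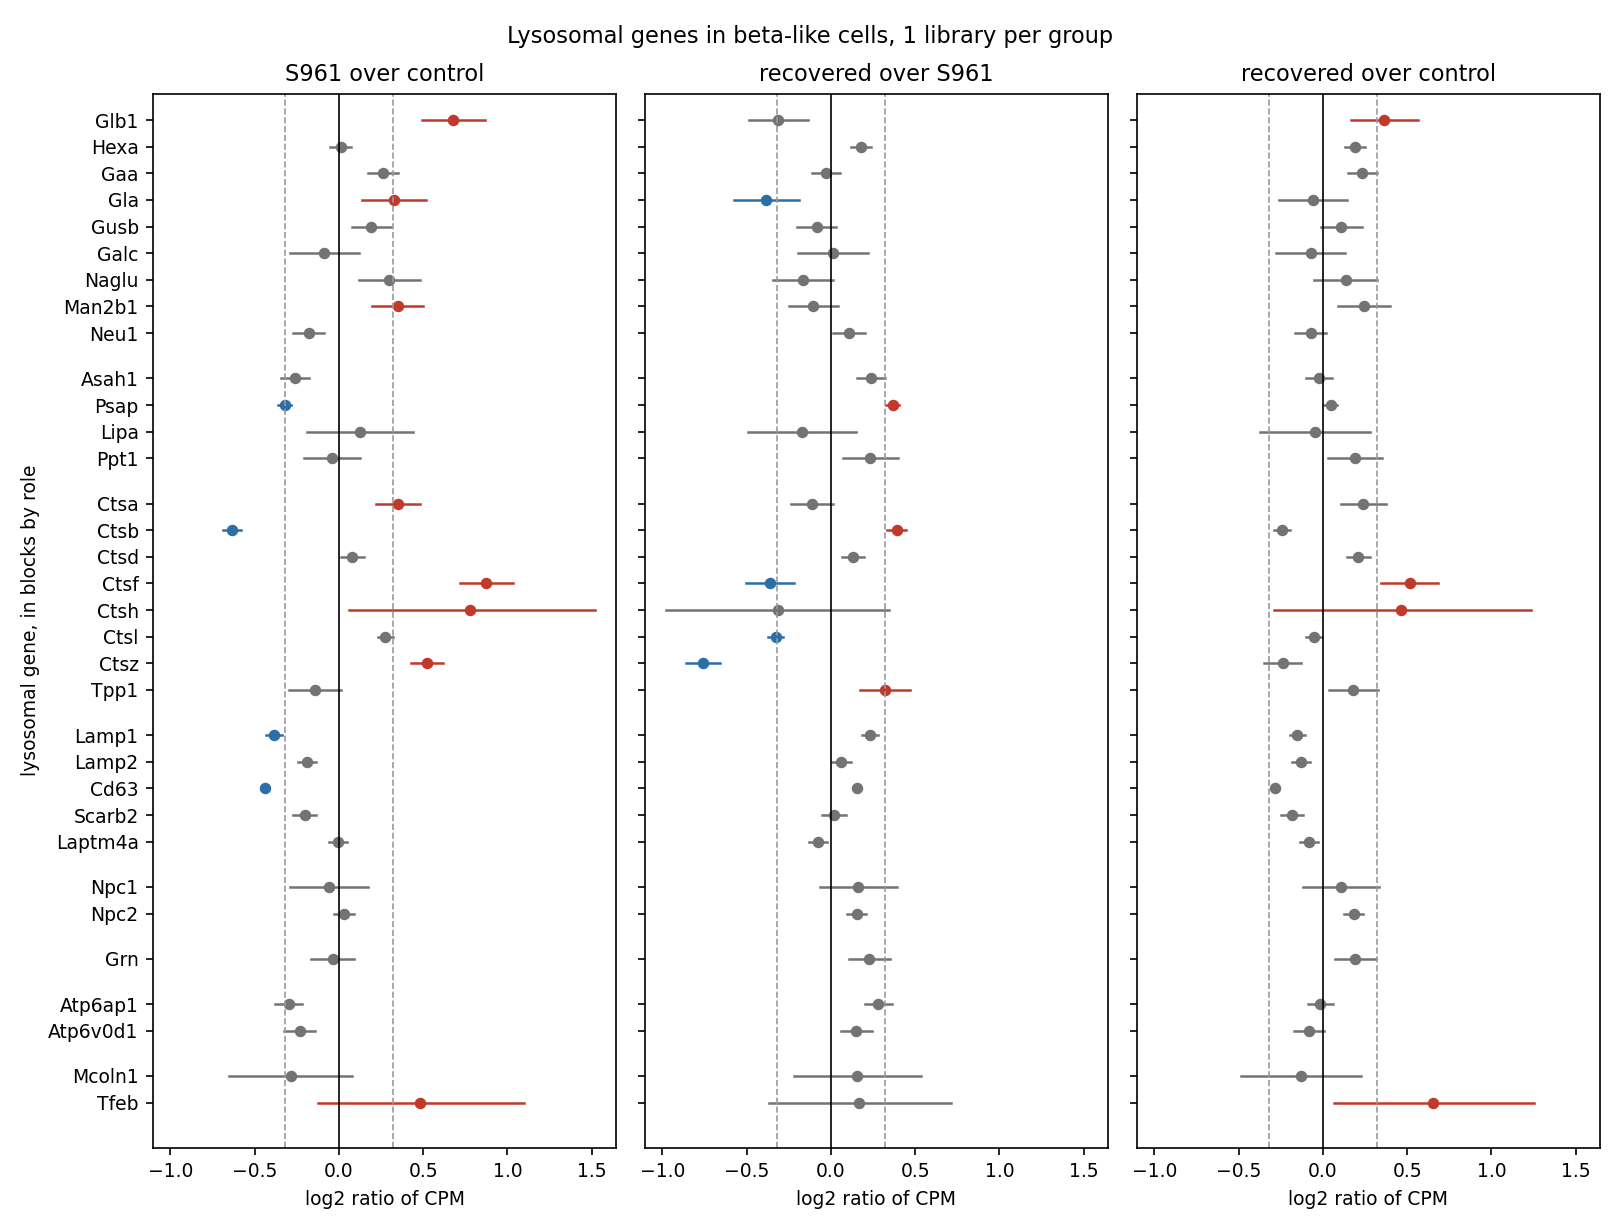
Log2 ratio of CPM (x axis) of the 33 measured lysosomal genes (y axis, in blocks by role) in beta-like cells, for S961 over control, recovered over S961 and recovered over control; bars are 95% counting intervals, dashed lines mark the threshold of 0.32, and red and blue points are past it. In the S961 over control panel Ctsf (0.88) and Glb1 (0.68) stand well to the right and Ctsb (−0.63) to the left, while the 5 membrane proteins lie between −0.44 and −0.01.

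Glb1 had 26.9 CPM in S961, 21.6 CPM in recovered and 16.8 CPM in control beta-like cells, from 608, 489 and 382 UMIs. The S961 library was the highest, the recovered one lay between, and the counting intervals of the 3 levels did not overlap. The ratio of S961 over control was 0.68 (0.49 to 0.87), or 1.60-fold. It was the third largest of the 33 lysosomal genes, and 95.9% of all measured genes had a lower ratio. Across the 18 other settings it ranged from 0.57 to 0.76, past the threshold in each, and it was lowest, at 0.57, with every cell thinned to 2000 UMIs. Glb1 (ENSMUSG00000045594.10) lies on GRCm38/mm10 at chr9:114401076-114474898 on the plus strand, per GENCODE M21. The gene Tmppe overlaps it on the same strand, and had 9, 12 and 5 UMIs in S961, recovered and control beta-like cells.

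Among the other acid glycosidases, the enzymes that trim sugars from lipids and glycoproteins, Gla and Man2b1 were also higher in S961. Gla, the alpha-galactosidase that degrades globotriaosylceramide, had 22.6 CPM in S961, 17.3 in recovered and 18.0 in control cells (S961 over control 0.32, 0.13 to 0.52). That is just past the threshold, and Gla stayed past it in 11 of 18 other settings. Man2b1, the lysosomal alpha-mannosidase, had 36.1 CPM in S961, 33.6 in recovered and 28.4 in control cells (0.35, 0.20 to 0.50), past the threshold in 13 of the 18. Hexa, the alpha subunit of beta-hexosaminidase, which acts on GM2 ganglioside, had 184 CPM in S961, 208 in recovered and 182 in control cells. Its ratio of 0.01 (−0.05 to 0.07) stood apart from that of Glb1. The glycogen-degrading Gaa (0.26), the heparan sulfate enzyme Naglu (0.30) and the beta-glucuronidase Gusb (0.19) lay above 0 without passing the threshold. Galc, the galactosylceramidase, was at −0.09 and the sialidase Neu1 at −0.18. In all, 3 of 9 glycosidases were higher and 0 lower, with a median of 0.26.

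Of the 4 lipid hydrolases and their activators, 0 were higher and 1 was lower. Psap encodes prosaposin, the precursor of the saposins that lift lipids to their hydrolases. It had 412 CPM in S961, 531 in recovered and 515 in control cells, a ratio of −0.32 (−0.36 to −0.28) for S961 over control. The S961 library alone was low, but the ratio only just reached the threshold and passed it in 8 of 18 other settings. The acid ceramidase Asah1 was at −0.26, the acid lipase Lipa at 0.13 and the palmitoyl thioesterase Ppt1 at −0.04.

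The cathepsins split. Ctsf, a cysteine protease, had 40.2 CPM in S961, 31.3 in recovered and 21.9 in control cells, and its ratio of 0.88 (0.72 to 1.04), or 1.83-fold, was the largest of the 33. Ctsz, a carboxypeptidase, had 93.7 CPM in S961, 55.4 in recovered and 65.3 in control cells, at 0.52 (0.43 to 0.62). Ctsa, the serine carboxypeptidase that also forms a complex with beta-galactosidase and Neu1 and protects them, had 47.5 CPM in S961, 44.0 in recovered and 37.3 in control cells (0.35, 0.22 to 0.48). Recovered Ctsf and Ctsa lay between the other libraries, as Glb1 did, whereas recovered Ctsz was the lowest of the 3. Ctsh, an aminopeptidase, had 2.03 CPM in S961, 1.64 in recovered and 1.19 in control cells, from 46 UMIs in S961 and 27 in control, and its ratio of 0.78 has a wide interval (0.06 to 1.52).

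Ctsb, among the best known lysosomal cysteine proteases, went the other way. It had 207 CPM in S961, 271 in recovered and 321 in control cells, a ratio of −0.63 (−0.69 to −0.58) for S961 over control. Only 2.21% of all measured genes had a lower ratio, and it stayed past the threshold in all 18 other settings, between −0.76 and −0.53. Ctsd, the main aspartic protease of the lysosome, had 160 CPM in S961, 175 in recovered and 151 in control cells (0.08). Ctsl, a cysteine endopeptidase, had 378 CPM in S961, 301 in recovered and 313 in control cells (0.27, 0.23 to 0.32). Neither passed the threshold, nor did the tripeptidyl peptidase Tpp1 (−0.14). Of the 8 measured peptidases, 4 were higher and 1 was lower. The gene Fdft1 overlaps Ctsb on the opposite strand, with 505 S961, 443 recovered and 435 control UMIs, and whether counting used strand is not given in the sources used here.

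Of the membrane proteins 0 were higher and 2 were lower. Cd63, a tetraspanin of late endosomes and secretory granules, had 1307 CPM in S961, 1457 in recovered and 1773 in control cells (−0.44, −0.46 to −0.42). Lamp1, a main glycoprotein of the lysosomal membrane, had 274 CPM in S961, 322 in recovered and 358 in control cells (−0.38, −0.43 to −0.33). Both were lowest in S961, with recovered between. Lamp2, a relative of Lamp1 that also serves chaperone-mediated autophagy, had 217 CPM in S961, 226 in recovered and 248 in control cells (−0.19). Scarb2, the receptor that brings glucocerebrosidase to the lysosome, was at −0.20, and Laptm4a at −0.01. Both proton pump genes, Atp6ap1 (−0.30) and Atp6v0d1 (−0.23), were below 0 without passing the threshold.

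The remaining genes showed small differences or few UMIs. Npc1, the membrane protein through which cholesterol leaves the lysosome, had 13.5 CPM in S961, 15.1 in recovered and 14.0 in control cells (−0.06). Npc2, which hands it the cholesterol, had 209 CPM in S961, 232 in recovered and 204 in control cells (0.03). The libraries lay close together for both genes. Grn, which encodes progranulin, a precursor of lysosomal granulins, had 44.7 CPM in S961, 52.4 in recovered and 45.8 in control cells (−0.04). Mcoln1, a calcium channel of the lysosomal membrane, had 5.08 CPM in S961, 5.66 in recovered and 6.20 in control cells (−0.29, −0.66 to 0.08). Tfeb itself had 2.52 CPM in S961, 2.83 in recovered and 1.80 in control cells. Its ratio of 0.48 was past the threshold, but its interval (−0.12 to 1.10) held 0, and it was −0.0027 when the CPM of each cell was averaged.

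**Figure D2:**
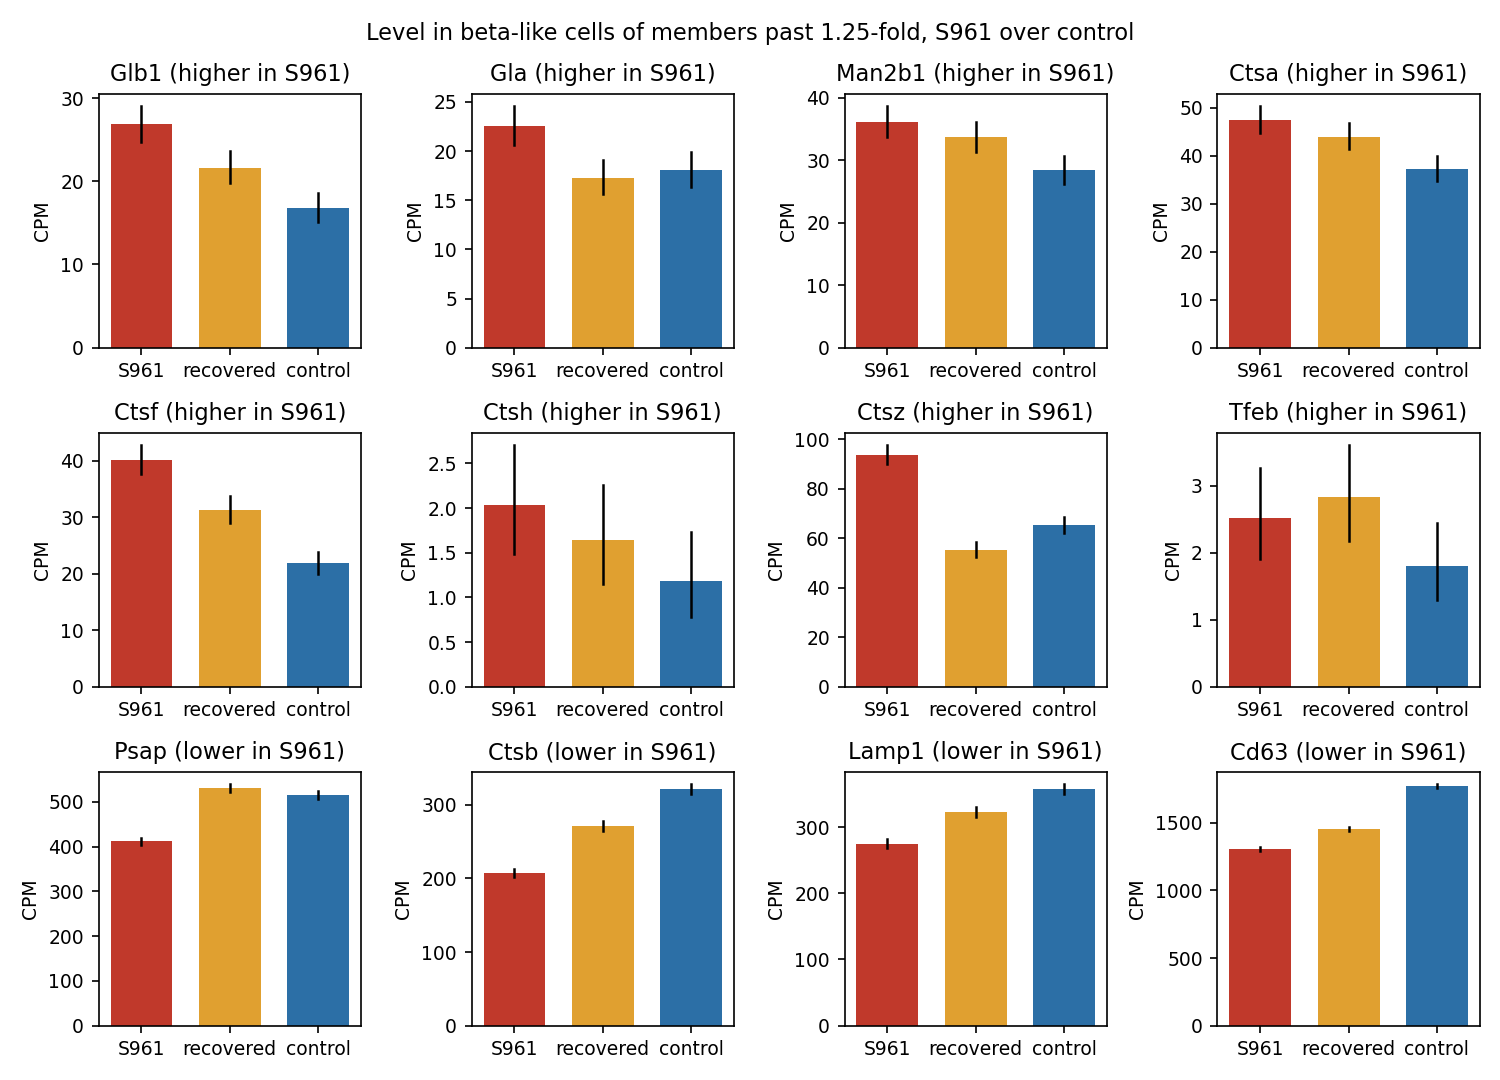
Level in CPM (y axis) of the 12 lysosomal genes past the threshold for S961 over control, in beta-like cells of the S961, recovered and control libraries; lines are 95% counting intervals and each panel has its own scale. Recovered cells lie between S961 and control for Glb1 (26.9, 21.6 and 16.8 CPM), Ctsf, Ctsb, Lamp1 and Cd63, and at or below control for Ctsz and Gla.

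Promoters of the lysosomal genes were searched for the letters CACGTG, the core of the element through which TFEB family factors bind lysosomal genes, and for the longer TCACGTGA, which contains it. Both motifs read the same on either strand. RefSeq promoters on GRCm38.p6, from 250 bases before to 50 after a gene's start, were at hand for 30 of the 34 genes, all but Asah1, Ctsb, Ctsh and Npc1. CACGTG was found in 11 of the 30 (36.7%), against 8.09% of 27025 genes in the table, and TCACGTGA in 5 (16.7%), against 1.12%. Among genes with a promoter, CACGTG was in 4 of the 7 that were higher in S961 over control, 1 of the 3 that were lower and 6 of the 19 that were neither. Stretches before the start are shown for genes of each kind, 5′ to 3′ on the strand of the gene, with the motif in capitals. Glb1, at chr9:114400828-114401077 on the plus strand, is given in full, and the others are Gla (chrX:134601167-134601247, minus), Ctsa (chr2:164833734-164833772, plus) and Ctsf (chr19:4855059-4855118, plus), all 3 higher in S961. They are followed by Lamp1 (chr8:13159085-13159160, plus), which was lower, and by Ctsd (chr7:142387893-142387952, minus) and Mcoln1 (chr8:3500433-3500506, plus), which were neither.
Glb1: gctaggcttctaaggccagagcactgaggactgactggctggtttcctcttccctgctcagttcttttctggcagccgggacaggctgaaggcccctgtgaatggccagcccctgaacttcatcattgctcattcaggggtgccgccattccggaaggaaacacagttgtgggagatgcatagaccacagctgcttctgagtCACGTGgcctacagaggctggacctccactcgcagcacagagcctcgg
Gla: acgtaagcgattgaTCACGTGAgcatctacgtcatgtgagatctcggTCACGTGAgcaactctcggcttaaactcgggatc
Ctsa: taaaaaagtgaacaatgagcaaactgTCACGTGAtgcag
Ctsf: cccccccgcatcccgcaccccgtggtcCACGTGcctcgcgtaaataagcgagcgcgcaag
Lamp1: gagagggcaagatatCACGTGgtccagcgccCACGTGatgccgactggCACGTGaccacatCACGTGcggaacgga
Ctsd: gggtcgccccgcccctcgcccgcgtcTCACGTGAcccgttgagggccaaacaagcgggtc
Mcoln1: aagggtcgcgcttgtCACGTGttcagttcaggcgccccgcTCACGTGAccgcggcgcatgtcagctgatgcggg
The motif stood once in the Glb1 stretch and 4 times in that of Lamp1, whose ratios of S961 over control were 0.68 and −0.38. A match describes these letters only and does not show that a factor binds there.

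Recovered over S961 shows where the recovered library differed from the S961 library. In this comparison 3 of 33 lysosomal genes (9.09%) were higher, as were 15.3% of all 11696 measured genes, and 4 (12.1%) were lower, as were 9.09% of all. The higher ones were Ctsb (0.39, 0.33 to 0.44), Psap (0.37, 0.33 to 0.41) and Tpp1, with 36.6 CPM in recovered and 29.3 CPM in S961 cells (0.32, 0.17 to 0.47). The lower ones were Ctsz (−0.76, −0.86 to −0.66), Gla (−0.38), Ctsf (−0.36) and Ctsl (−0.33). With median-of-ratios scaling, which sets the median gene as the base, 0 were higher, with Ctsb at 0.32, Psap at 0.30 and Tpp1 at 0.25, and 6 were lower. Averaging the CPM of each cell, which moved the median of all genes to 0.23, gave 9 higher and 5 lower. Glb1 was at −0.31 (−0.49 to −0.14), short of the threshold, and was past it in 6 of 18 other settings. The median of the 33 ratios was 0.11, against 0.07 for all genes.

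Recovered over control sets the recovered library beside the control library. With 1 library per group it cannot show that a difference persisted. Here 4 of 33 lysosomal genes (12.1%) were higher, as were 11.7% of all 11606 measured genes, and 0 were lower, against 4.33% of all. The 4 were Tfeb (0.65, lower bound 0.06), Ctsf (0.51, 0.35 to 0.68), Ctsh (0.46, −0.29 to 1.24) and Glb1 (0.37, 0.17 to 0.56). Glb1 was past the threshold in 12 of the 18 other settings and at 0.23 with cells thinned to 2000 UMIs. Averaging the CPM of each cell gave 4 higher and 2 lower, and median-of-ratios scaling gave 3 higher and 1 lower. Cd63 (−0.28), Ctsb (−0.24) and Ctsz (−0.24) were short of the threshold, and all 5 membrane proteins were again below 0. These 3 comparisons share libraries, so their values for a gene are not independent.

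Because clusters and depths differed between libraries, the genes were set side by side within each of the 4 beta-like clusters. Glb1 in S961 over control was at 0.74 (0.50 to 0.99) in the cluster led by Pdyn, 0.40 (0.02 to 0.78) in that led by Mlxipl, 0.88 (0.32 to 1.44) in that led by Hspa1b, and 0.50 (−0.94 to 2.43) in the cluster of low UMI counts led by Serpina7. The last rests on 54 S961 and 4 control UMIs. For recovered over control, Glb1 was at 0.43 (0.17 to 0.70) in the Pdyn-led cluster and 0.39 (−0.24 to 1.02) in the Hspa1b-led one. It was at 0.02 (−0.33 to 0.36) in the Mlxipl-led cluster, which held 45.4% of the recovered beta-like cells. In the low-UMI cluster it was at 0.07, from 3 recovered and 4 control UMIs. The remaining values are for S961 over control. The ratio of Ctsf was between 0.43 and 1.00 in the 4 clusters and that of Ctsz between 0.48 and 0.60. In the low-UMI cluster both intervals held 0. Ctsf was at 0.43 (−0.76 to 1.92) there, from 77 S961 and 6 control UMIs. Ctsz was at 0.60 (−0.11 to 1.40), from 246 S961 and 17 control UMIs. Ctsb was below 0 in all 4, from −0.74 in the Hspa1b-led cluster to −0.36 in the Mlxipl-led one. Cd63 was at −0.43, −0.49 and −0.62 in the Pdyn-led, Mlxipl-led and Hspa1b-led clusters but at 0.18 (0.02 to 0.34) in the low-UMI cluster. Gla was at 0.51 in the Pdyn-led cluster and at 0.05 in the Mlxipl-led one, and Psap was at −0.87 in the low-UMI cluster and −0.11 in the Mlxipl-led one.

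**Figure D3:**
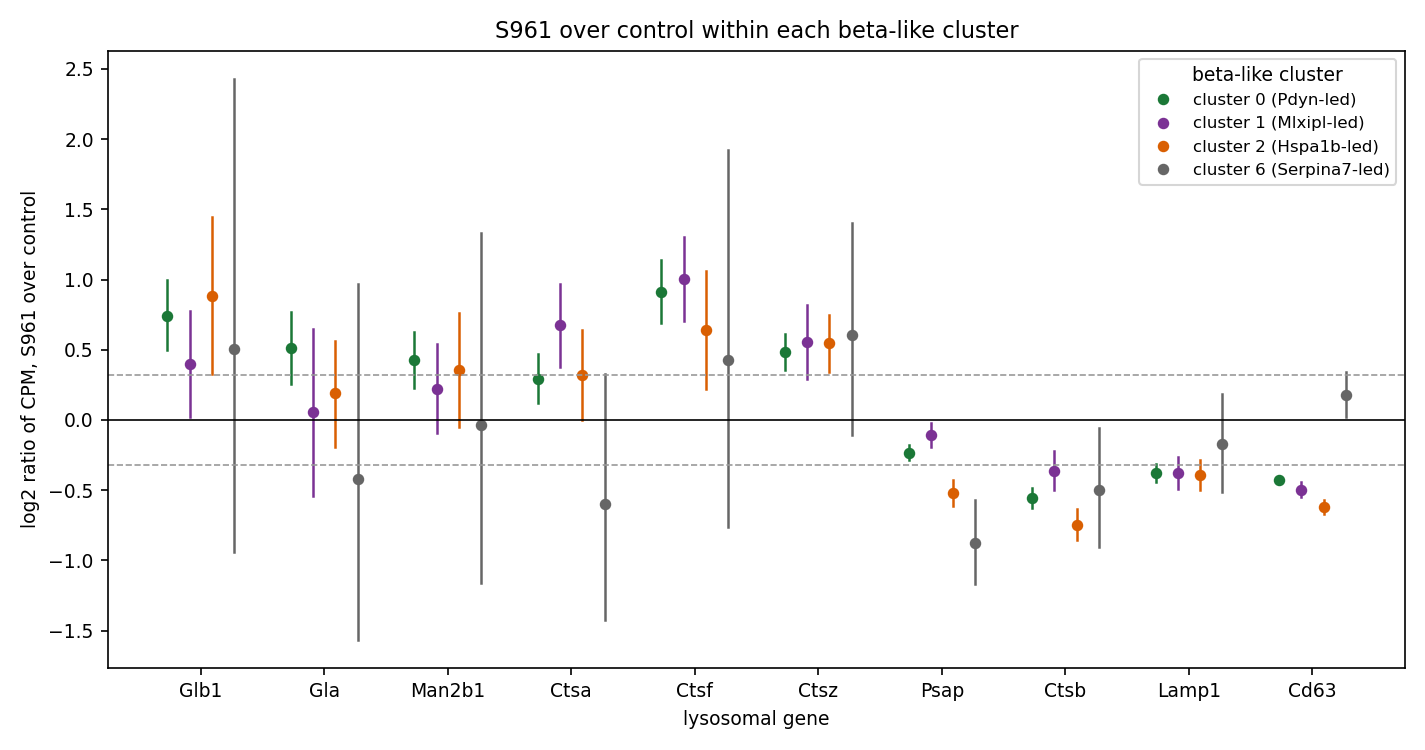
Log2 ratio of CPM for S961 over control (y axis) of 10 lysosomal genes (x axis) within each of the 4 beta-like clusters, coloured by cluster; lines are 95% counting intervals and dashed lines mark the threshold of 0.32. Glb1, Ctsf and Ctsz are above 0 and Psap and Ctsb below 0 in all 4 clusters. In the Serpina7-led cluster the intervals of Glb1, Ctsf and Ctsz hold 0. Cd63 is at 0.18 in that cluster and between −0.62 and −0.43 in the others.

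At the level of single cells Glb1 was sparse. With each beta-like cell thinned to 2000 UMIs, a Glb1 UMI was seen in 4.86% of 1503 S961 cells (3.83 to 6.07), 3.90% of 2025 recovered cells (3.10 to 4.84) and 3.36% of 2796 control cells (2.73 to 4.10), with exact Clopper-Pearson 95% intervals. Without thinning the shares were 28.5%, 19.5% and 11.8%, in the order of the depths given above. The thinned intervals of all 3 libraries overlapped, and the shares in the other named classes were 4.77% in S961, 3.53% in recovered and 4.29% in control. Acinar-like cells of the S961 library, at a median of 14562 UMIs, held a Glb1 UMI in 2.91% of 103 thinned cells and 12.1% unthinned. No islet cell class is known to lack Glb1, so the share that free RNA alone gives was not measured.

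Senescent cells are often marked by Cdkn1a, the gene of the cell-cycle inhibitor p21, which had 168 CPM in S961, 74.9 in recovered and 74.3 in control beta-like cells. Among the thinned cells, those with a Cdkn1a UMI were set against those without. In S961 cells Glb1 was at 19.0 CPM with and 26.5 CPM without Cdkn1a (−0.48, −1.50 to 0.43). The ratio was 0.57 (−0.45 to 1.47) in recovered and −0.43 (−1.61 to 0.56) in control cells, so it went both ways and every interval held 0. Ctsb was past the threshold in S961 cells, higher with Cdkn1a at 0.37 (0.09 to 0.64). Its ratio was 0.29 (0.03 to 0.54) in recovered and 0.19 in control cells. Summed over all 34 genes, the ratio was 0.08 in S961, 0.04 in recovered and 0.05 in control cells.

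Other cell types carry lysosomal RNA too, so markers of macrophages, alpha, delta, acinar and ductal cells were read in the beta-like class. The 9 macrophage markers other than C1qa summed to 5.26 CPM in S961, 3.41 in recovered and 3.25 in control beta-like cells, which is 0.0163%, 0.0142% and 0.0145% of their level in macrophage-like cells. C1qb, C1qc and Lyz2 had 0 UMIs in recovered beta-like cells. C1qa, set apart after its values were seen, had 60.4, 37.6 and 32.4 CPM in S961, recovered and control. At the share given by the 9 markers, macrophage RNA would supply 0.0377% of the S961 level of Glb1, 0.517% of that of Ctsz and 11.1% of that of Ctsh. These parts depend on leaving C1qa out. With C1qa included, the 10 markers stood at 0.169%, 0.146% and 0.132% of their macrophage-like level in S961, recovered and control. At those shares the parts would be larger, and they are not given here. Alpha-cell markers stood at 0.890%, 0.412% and 0.453% of their alpha-like level in S961, recovered and control beta-like cells. At these shares alpha-cell RNA would supply 7.21, 2.07 and 2.78 CPM of Ctsz, or 7.69%, 3.75% and 4.26% of its beta-like level, and under 1% of Glb1. The alpha-cell markers include Ttr, a leading gene of the low-UMI beta-like cluster, which held 29.1% of the S961 beta-like cells. The part of Ttr in these shares was not tested. Delta-cell markers stood at 0.0738%, 0.203% and 0.224% of their delta-like level, and at these shares delta-cell RNA would supply 2.17%, 6.14% and 8.65% of Ctsh in S961, recovered and control beta-like cells. The 7 acinar markers summed to 294, 165 and 73.8 CPM in S961, recovered and control beta-like cells. That is 0.0898% and 0.0571% of the acinar-like level in S961 and recovered, and at these shares acinar RNA would supply 0.0219% and 0.0274% of Glb1 and 0.415% and 0.449% of Ctsl. Ductal markers summed to 499, 439 and 523 CPM, with Sox9 at 0 UMIs in S961 and recovered and Cftr at 0 in S961 and control. Their sum is 3.18% and 2.52% of the ductal-like level in S961 and recovered, and at these shares ductal RNA would supply 1.73% and 1.94% of Glb1. For Ctsh the same shares would give 5.10 and 8.28 CPM in S961 and recovered, above the measured 2.03 and 1.64 CPM. The ductal marker sum is thus no measure of ductal RNA in beta-like cells, and the figures for Glb1 are not an estimate of it. No acinar or ductal share was computed for the control library. The part of acinar and ductal RNA in the other differences was not tested.

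The order of the libraries in Glb1 level differed between classes. Alpha-like cells, the glucagon cells, had 14.5 CPM in S961, 18.3 in recovered and 24.0 in control, from 70, 37 and 37 UMIs, and their ratio of S961 over control was −0.73 (−1.32 to −0.11). Delta-like cells, the somatostatin cells, had 26.9 CPM in S961, 22.4 in recovered and 25.5 in control (0.08). Endothelial-like cells had 32.8 CPM in S961, 33.9 in recovered and 23.4 in control (0.48, −0.39 to 1.45). Alpha-like cells of the S961 library were thus the lowest of the 3 libraries, whereas S961 beta-like cells were the highest. Stellate- or fibroblast-like cells had 13.9, 47.5 and 6.75 CPM in S961, recovered and control from 23, 15 and 2 UMIs, and macrophage-like cells 62.0, 48.3 and 26.8 CPM from 40, 3 and 2 UMIs, the same order as in beta-like cells. Among these 6 classes, ordered by level, S961 macrophage-like cells led, with an interval (44.3 to 84.5 CPM) that did not reach the endothelial (24.4 to 43.1), delta (21.7 to 33.0) and beta (24.8 to 29.1) intervals, which overlap each other. S961 alpha-like and stellate-like cells were lowest of the 6 and overlap each other; acinar-like cells, outside the 6, had 6.56 CPM (3.75 to 10.7) in S961. In the control library the counting intervals of macrophage, delta, alpha and endothelial-like cells overlapped, and that of delta-like cells (18.9 to 33.6) lay just above that of beta-like cells (15.2 to 18.6). In the recovered library the interval of stellate- or fibroblast-like cells (26.6 to 78.3) lay above those of beta-like (19.8 to 23.6) and alpha-like cells (12.9 to 25.3), and the other neighbours overlapped. Insulin genes took 33.5%, 31.1% and 30.8% of UMIs in S961, recovered and control beta-like cells. In the other classes of the 6 they took between 0.662% and 9.40%. This lowers the CPM of every other gene in beta-like cells beside those classes. An order of classes without insulin genes in the total is not given here, so the place of beta-like cells among the classes is not settled.

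**Figure D4:**
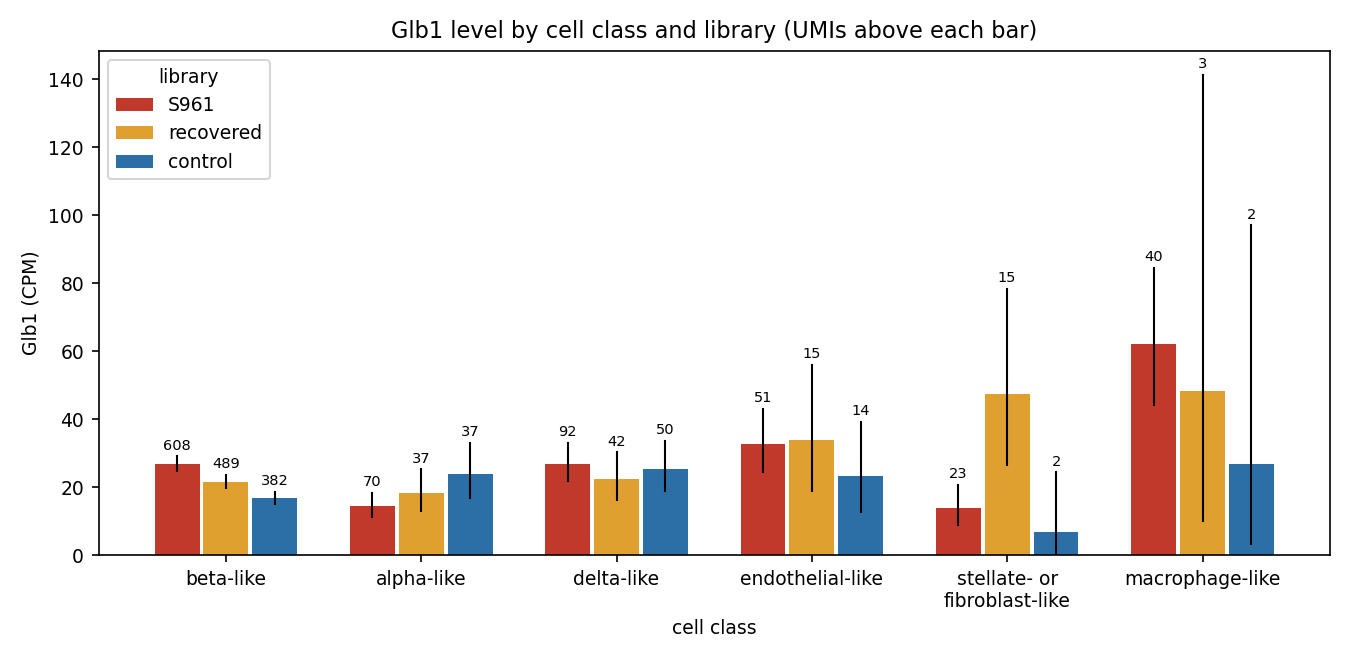
Level of Glb1 in CPM (y axis) by cell class (x axis) in the S961, recovered and control libraries; lines are 95% counting intervals and the UMIs behind each bar stand above it. In beta-like cells S961 is highest (26.9 CPM), with 21.6 in recovered and 16.8 in control, and in alpha-like cells S961 is lowest (14.5 CPM), with 18.3 in recovered and 24.0 in control.

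Of the 6 classes, macrophage-like cells had the highest summed lysosomal level. Their summed level of the 34 genes was 29846 CPM in S961, 25829 in recovered and 24286 in control, against 4690, 5059 and 5395 CPM in beta-like cells of the same libraries. Of 17 genes with enough UMIs in all 3 libraries, 12 were at least 2-fold above beta-like cells in each: Ctsa, Ctsb, Ctsc, Ctsd, Ctsh, Ctsl, Ctsz, Grn, Hexa, Lipa, Npc2 and Psap. The minimum counts macrophage-like UMIs, so a gene low in beta-like cells could reach it only by being high in macrophage-like cells. Lipa, for example, had 36 UMIs in recovered macrophage-like cells and 6.95 CPM in recovered beta-like cells. The 12 of 17 is therefore not a rate, and the share over all genes is not given here. Ctsb, for example, had 4701, 3335 and 3611 CPM in S961, recovered and control macrophage-like cells. Alpha- and delta-like cells differed at least 2-fold from beta-like cells in all 3 libraries in few genes: Ctsz, Scarb2, Ctsh and Ctsl. Ctsz had 810 CPM in S961, 504 in recovered and 614 in control alpha-like cells, log2 ratios of 3.11, 3.19 and 3.23 over beta-like cells. Ctsh had 59.7 CPM in S961, 49.6 in recovered and 45.8 in control delta-like cells, log2 ratios of 4.88, 4.92 and 5.27 over beta-like cells, where it was near 2 CPM or less. Delta-like cells were also at least 2-fold above beta-like cells in Ctsl in all libraries, and alpha-like cells below in Scarb2. Endothelial-like cells were above it in Ctsl, Grn and Laptm4a and below it in Cd63, Gaa and Hexa. Stellate- or fibroblast-like cells were above it in Ctsc, Ctsh and Ctsz. Each of these held in all 3 libraries, of 29 genes with enough UMIs in alpha, 32 in delta, 24 in endothelial and 22 in stellate- or fibroblast-like cells. The same limit applies to these numbers: Ctsc had 248 UMIs in recovered stellate- or fibroblast-like cells and 3 in recovered beta-like cells. The insulin share of beta-like UMIs also raises every ratio over beta-like cells.

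**Figure D5:**
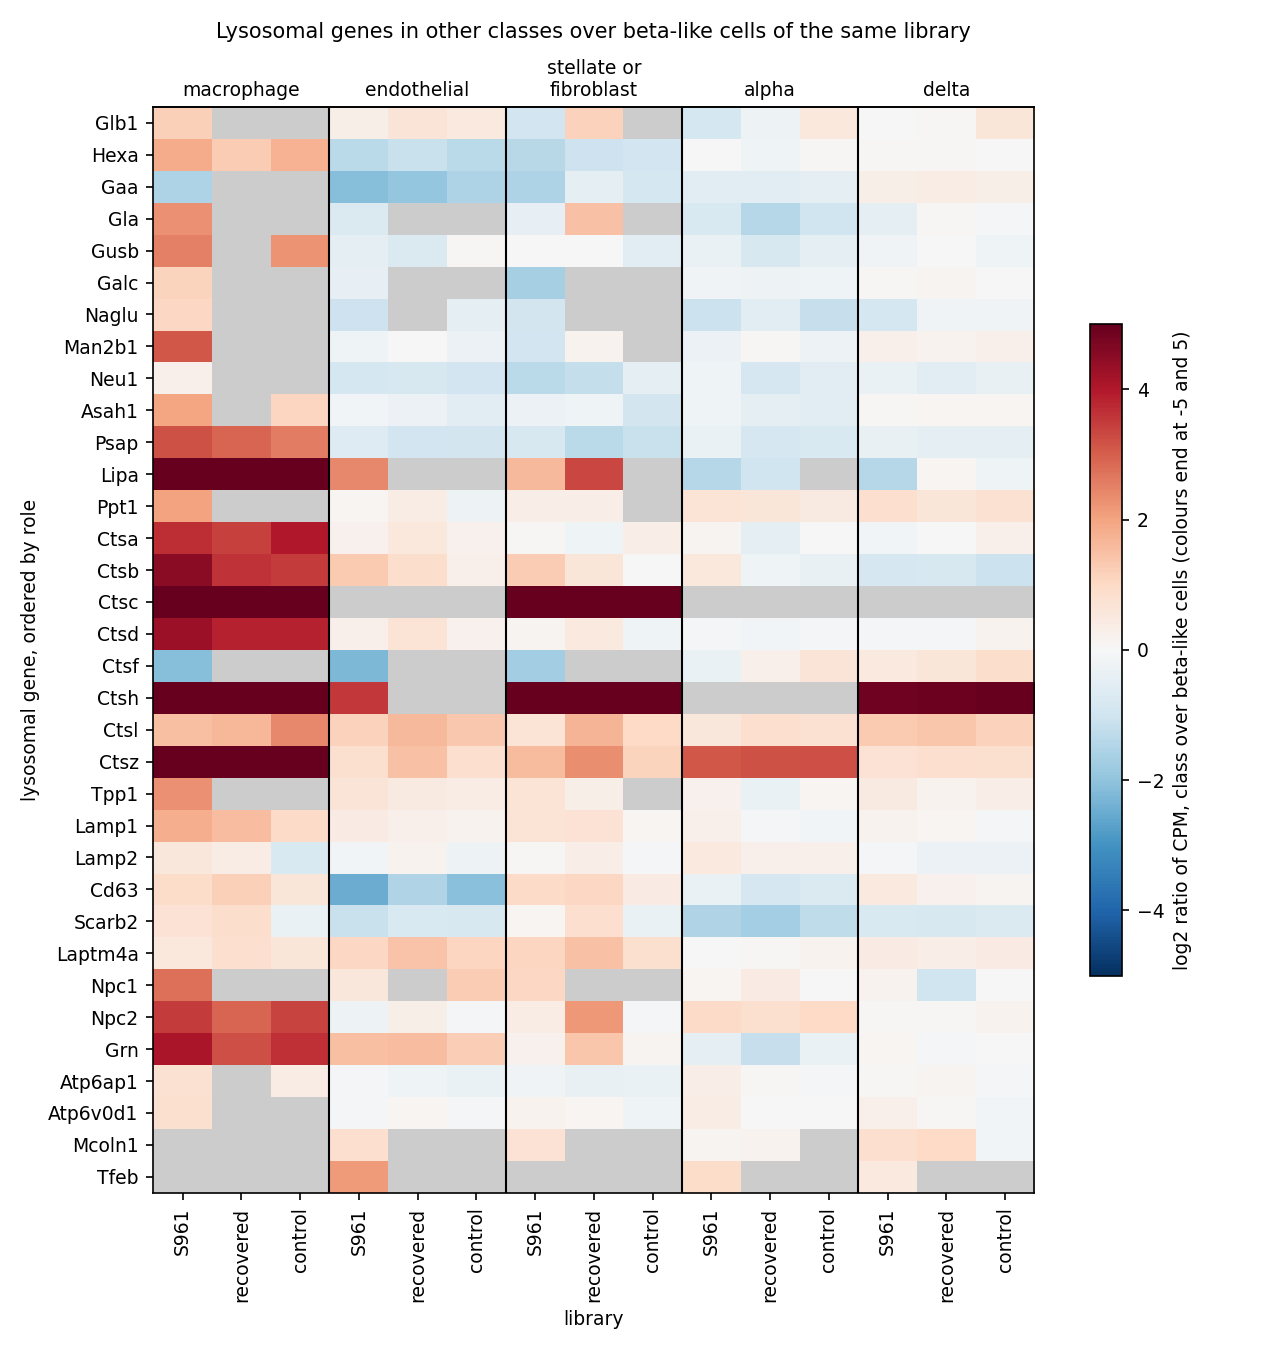
Log2 ratio of CPM of each lysosomal gene (y axis, ordered by role) in 5 other classes over beta-like cells of the same library (x axis, S961, recovered and control within each class); colours end at −5 and 5, and grey marks too few UMIs. Macrophage-like cells are above beta-like cells in most genes, and Ctsz in alpha-like cells reads 3.11, 3.19 and 3.23.

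Within the other classes, S961 over control was read in the same way. In alpha-like cells 4 of 29 measured lysosomal genes were higher (Gla, Naglu, Ctsa, Ctsz) and 2 lower (Glb1, Scarb2), against 19.8% and 7.86% of all genes. In delta-like cells 5 of 30 were higher (Man2b1, Ctsf, Ctsh, Ctsl, Ctsz) and 2 lower (Naglu, Ctsb), against 23.9% and 8.66%. Endothelial-like cells had 6 of 26 higher (Glb1, Man2b1, Lipa, Ctsa, Ctsb, Ctsz) and 4 lower (Gaa, Cd63, Scarb2, Npc1), against 23.6% and 11.7%. In stellate- or fibroblast-like cells 10 of 25 were higher and 3 lower, against 40.9% and 15%, and in macrophage-like cells 17 of 27 were higher and 2 lower (Ctsl, Atp6v0d1), against 35.7% and 20.6%. The macrophage-like counts rest on 80 S961 and 22 control cells. Insulin genes took 0.909%, 7.85% and 7.88% of UMIs in S961, recovered and control delta-like cells, and their part in the scaling of other genes moves with the library. With mitochondrial genes, Ins1, Ins2 and Iapp left out of the total, 0 lysosomal genes were higher and 6 lower in delta-like cells. Median-of-ratios scaling gave 6 higher and 4 lower in stellate- or fibroblast-like cells, and averaging the CPM of each cell gave 3 higher and 5 lower in endothelial-like cells. The shares of all genes under these other settings are not given here, so these counts cannot be told apart from a shift of all genes.

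Ctsz was higher past the threshold in all 6 classes. Its ratio of S961 over control was 0.52 in beta, 0.40 in alpha, 0.42 in delta, 0.50 in endothelial, 1.00 in stellate- or fibroblast- and 0.40 in macrophage-like cells. In delta-like cells that call was lost with the reduced total and when the CPM of each cell was averaged. Ctsb went both ways. It was at −0.63 in beta and −0.42 in delta-like cells, but at 0.30 in alpha, 0.42 in endothelial, 0.61 in stellate- or fibroblast- and 0.38 in macrophage-like cells. Its levels were 302, 235 and 246 CPM in S961, recovered and control alpha-like cells, and 514, 505 and 385 CPM in endothelial-like cells.

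After recovery, the counts for recovered over S961 were 3 higher and 8 lower in alpha-like cells (all genes 11.0% and 14.7%), and 3 higher and 2 lower in delta-like cells (9.06% and 19.7%). They were 7 and 2 in endothelial (16.2% and 18.7%), 11 and 1 in stellate- or fibroblast- (18.3% and 37.2%) and 3 and 13 in macrophage-like cells (24.9% and 34.5%). For recovered over control they were 3 and 5 in alpha (16.6% and 10.3%), 1 and 0 in delta (14.0% and 10.5%) and 8 and 0 in endothelial-like cells (20.7% and 12.4%). Stellate- or fibroblast-like cells had 12 and 0 (31.9% and 19.8%), and macrophage-like cells 6 and 2 (27.8% and 13.8%). The recovered classes were small, with 51 stellate- or fibroblast-like and 18 macrophage-like cells, and these counts move with the scaling. With median-of-ratios scaling, recovered over S961 gave 6 higher and 2 lower in delta-like and 5 higher and 12 lower in macrophage-like cells. With the same scaling, recovered over control gave 2 and 8 in alpha-like and 4 and 4 in macrophage-like cells. The number of lysosomal genes measured is not given for these counts, nor are the shares of all genes under median-of-ratios scaling. The counts are therefore not read as above or below the shares of all genes.

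The rest of the pathway was read from 7 further lists in beta-like cells, S961 over control, beside a background of 14.7% of all measured genes higher, 12.7% lower and a median of −0.02. Of 24 measured other soluble hydrolases and cofactors, 5 (20.8%) were higher, and 13 ratios were above 0 and 11 below (median 0.03). The higher ones included Gm2a, the activator that presents GM2 ganglioside to beta-hexosaminidase, with 20.5 CPM in S961 and 12.0 CPM in control cells (0.77, 0.55 to 0.99), and the acid DNase gene Dnase2a (0.75). Of 4 measured other cathepsins and inhibitors 2 were higher and 0 lower, both higher ones cystatins, which inhibit cysteine cathepsins: Cst3, with 944 CPM in S961 and 621 CPM in control cells (0.60, 0.57 to 0.64), and Cst6 (0.99). They were lower again in recovered over S961, Cst3 at −0.48 and Cst6 at −0.60.

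The other 5 lists hold genes that build, fill and regulate the lysosome, read against the same background. Of 15 V-ATPase subunits 0 were higher and 1 (6.67%) lower (Atp6v0a2, −0.37), with 12 of the 15 ratios below 0 (median −0.09). Of 16 other membrane proteins 1 was higher, the sialic acid exporter Slc17a5 (0.47), and 4 (25%) were lower, with 12 of the 16 ratios below 0 (median −0.09). Among these were Laptm4b (−0.42) and Cd68, a late endosomal glycoprotein best known from macrophages, with 2.43 CPM in S961 and 5.63 CPM in control cells (−1.21, −1.69 to −0.74). Of 15 sorting genes 1 was higher, Gnptg (0.41), a subunit of the enzyme that starts the mannose 6-phosphate tag, and 4 (26.7%) were lower, among them the mannose 6-phosphate receptor gene M6pr (−0.40), with 11 of the 15 ratios below 0 (median −0.16). Of 13 TFEB family and nutrient sensing genes 0 were higher and 2 (15.4%) lower, Flcn (−0.45) and Rptor (−0.33), with 10 of the 13 ratios below 0 (median −0.12). Of 15 autophagy genes 3 (20%) were higher, including Gabarapl1 (0.49) and Map1lc3b (0.38), members of the family that coats autophagosomes, and 2 (13.3%) lower, Atg9a (−0.39) and Vmp1 (−0.34), with 9 of the 15 ratios below 0 (median −0.04).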

How the data were processed

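The deposited table holds UMI counts per gene and barcode, made by the authors with Cell Ranger (no version given) on mm10, per the submitters' processing notes; every value was a whole number. Barcodes were assigned to libraries by the suffix in the labels. Cells needed 500 genes or more and 20% mitochondrial UMIs or less (3507, 3537 and 4270 passed in S961, recovered and control), and Scrublet (scanpy 1.11.5, expected rate 0.06) removed 90, 24 and 12 doublets, so few may have been caught in recovered and control. Cells were clustered on 2000 variable genes, 30 principal components and 15 neighbours with leidenalg 0.10.2 at resolution 0.5. Clusters were named from 14 marker sets, and a cluster was beta-like if insulin genes took at least 20% of its UMIs. A cluster rich in insulin but led by the pseudogene Ftl1-ps1 (700 cells) was kept apart, and 3 clusters stayed unnamed.

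UMIs were summed per class and library. No count model or test across libraries was run, because each group has 1 library. The genes, lists and rules were chosen with earlier results of these data known. All 34 genes are accounted for; those past the log2 threshold of 0.32 in beta-like cells and 14 set names are given with every library's level, and other lists by counts and up to 2 examples each way with at least 100 UMIs. A result on the other soluble hydrolases is not reported here. Class over beta-like ratios needed at least 20 UMIs, observed and expected together. Coordinates came from GENCODE M21 (34 matched). The ratio script was tested on simulated data. Alternatives covered scaling, UMI minimum, cell filters, thinning, doublets, clustering, class membership and threshold. Python 3.11.15, numpy 2.4.6, scipy 1.17.1, pandas 2.3.3 and matplotlib 3.10.9 were used.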

Additional observations from a re-analysis of the deposited data

Results flagged for a closer look

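Glb1 moved in opposite directions in a pair of endocrine classes: its log2 ratio of S961 over control was 0.68 in beta-like and −0.73 in alpha-like cells, with counting intervals that do not overlap. The alpha-like ratio rests on 70 S961 and 37 control UMIs. Ctsb also moved in opposite directions between classes. S961 over control was −0.63 in beta-like and 0.42 in endothelial-like cells, and recovered over S961 was 0.39 in beta-like and −0.36 in alpha-like cells. With 1 library per group the difference was not tested in any of these cases.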

How the results depend on the processing

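No paired analysis was possible because each group has 1 library. Of 2150 values recomputed under other settings, 1940 stayed within their counting interval or, for counts, within 1.5 times, 206 moved more and 4 were ratios past the threshold that changed sign. Those 4 were as follows. Tfeb in S961 over control became −0.0027 when the CPM of each cell was averaged, Tfeb in recovered over control became −0.19 with cells thinned to 2000 UMIs, and Ctsh in recovered over control became −0.53 with thinning and −0.27 among cells with 4 to 7% mitochondrial UMIs. Of 99 beta-like ratios, 34 had another sign under at least 1 setting, 3 of them past the threshold; the rest, such as Laptm4a and Npc2 in S961 over control, were short of it. Counts are lysosomal genes past the log2 threshold of 0.32. In beta-like cells, S961 over control gave 7 lower with thinning, 5 higher with the Ftl1-ps1-led cells added, and 3 higher and 1 lower at 1.5-fold. Recovered over S961 gave 2 lower at 4 to 7% mitochondrial UMIs, 1 lower with at most 10% mitochondrial UMIs and at least 1000 genes, 5 higher with thinning, 9 higher with averaged cells (median of all genes 0.23), 0 higher with median-of-ratios scaling, 0 higher and 1 lower at 1.5-fold, and 1 higher without the low-UMI cluster, a setting chosen after seeing the data. Recovered over control gave 2 higher at 4 to 7% mitochondrial UMIs, with thinning and with a minimum of 200 UMIs, 1 higher at 1.5-fold, 2 lower with averaged cells, and 1 lower with median-of-ratios scaling and with the Ftl1-ps1-led cells. In alpha-like cells S961 over control gave 7 higher at 4 to 7% mitochondrial UMIs, and recovered over control 8 lower with median-of-ratios scaling. In delta-like cells S961 over control gave 9 higher and 1 lower at 4 to 7% and 0 higher with averaged cells. Median-of-ratios scaling gave 2 higher and 4 lower there. The reduced total, without mitochondrial genes, Ins1, Ins2 and Iapp but with Sst, gave 0 higher and 6 lower. Delta-like recovered over S961 gave 6 higher with median-of-ratios scaling and 8 with the reduced total, and recovered over control 4 higher at 4 to 7%, 3 under the stricter filters, and 0 higher and 1 lower with averaged cells. In endothelial-like cells averaging gave 3 higher for S961 over control and 5 for recovered over control, where the stricter filters gave 4. In stellate- or fibroblast-like cells S961 over control gave 5 higher and 1 lower at 4 to 7% and 6 higher with median-of-ratios scaling, recovered over S961 gave 18 higher and 0 lower with that scaling and 0 lower with averaged cells and under the stricter filters, and recovered over control gave 1 lower with averaged cells, the stricter filters and the reduced total. In macrophage-like cells averaging gave 1 lower for S961 over control and 3 higher and 6 lower for recovered over control, median-of-ratios scaling 5 higher for recovered over S961 and 4 lower for recovered over control, and the reduced total 5 lower there. Without thinning the shares of beta-like cells with a Glb1 UMI were 28.5% in S961, 19.5% in recovered and 11.8% in control. Shares of all genes under these settings are not given here, so a change in a count cannot be told apart from a shift of all genes. The causes of these shifts were not tested. Depth limits ratios of genes with few UMIs, such as Ctsh, Tfeb and Mcoln1 in beta-like cells and Glb1 in other classes, whose intervals are wide.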
